A study of Mus musculus with 13 samples.

Results

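The genes *Kcnq3*, *Kcnq5*, *Hcn2*, *Hcn3* and *Hcn4* encode pore-forming subunits of 2 families of voltage-gated channels, and their transcripts were followed in labelled mouse sensory neurons, mainly proprioceptors, across 4 stages and across the adult clusters. They were chosen by name, as 5 of the 50508 genes listed in the count tables, of which 30658 had a UMI in any well. Single tdTomato+ neurons of the dorsal root ganglia (DRG) had been sorted into 96-well plates and sequenced by Plate-seq, a plate-based single-cell method that counts Unique Molecular Identifiers (UMIs). The adult (5 plates), p12 (4 plates) and p0 (2 plates) neurons came from *PV:Cre+/-;Rx3:Flp+/-;Ai65+/-* mice, in which both recombinases are needed for tdTomato, so that a neuron that expressed *PV* and *Rx3* at any earlier time stays labelled. The 2 plates of e14.5 neurons came from *TrkC:tdTomato* embryos. Neurons were taken from 6 adult mice (older than postnatal day 56), 4 at p12 and 6 at p0, and from 2 embryos, of either sex. The *TrkC:tdTomato* label is not limited to proprioceptors, and the authors considered that e14.5 clusters 3 and 4 may be other neurons that carry it. All e14.5 clusters enter the e14.5 values unless stated. The reporter therefore changes between e14.5 and the later stages, and an effect of the reporter cannot be told apart from an effect of stage there. The authors' annotation kept 586 neurons of 1248 wells, which were 169 at e14.5, 55 at p0, 154 at p12 and 208 in the adult.

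Kcnq channels carry the M-current, a slowly activating potassium current that opens near the resting potential and holds back repetitive firing, and it is shut when receptors coupled to Gq deplete the membrane lipid PIP2. Hcn channels carry Ih, an inward cation current that opens on hyperpolarization, is speeded by cAMP and pulls the membrane back towards threshold. Both currents are known to set the excitability of large myelinated sensory neurons, the class to which proprioceptors belong.

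The pore of an Hcn channel is built around a glycine-tyrosine-glycine motif, the selectivity filter. The coding stretch of 60 bases around this motif is shown for the 3 *Hcn* genes, to show how alike the counted transcripts are there. Sequences and coordinates are from the GENCODE vM21 transcripts on GRCm38, printed 5′ to 3′ on the coding strand, with the codons of the motif in capitals.

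Hcn2: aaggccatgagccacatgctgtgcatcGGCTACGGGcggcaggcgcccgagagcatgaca

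Hcn3: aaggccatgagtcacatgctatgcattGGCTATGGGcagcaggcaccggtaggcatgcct

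Hcn4: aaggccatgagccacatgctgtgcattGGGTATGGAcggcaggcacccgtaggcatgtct

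*Hcn2* matched *Hcn3* at 48 of 60 bases and *Hcn4* at 50, and *Hcn3* matched *Hcn4* at 53. The stretches each lie in exon 4, at chr10:79728932-79728991 on the plus strand for *Hcn2*, chr3:89150982-89151041 on the minus strand for *Hcn3* and chr9:58855564-58855623 on the plus strand for *Hcn4*. The whole genes span chr15:65986387-66286642 (*Kcnq3*), chr1:21398403-21961942 (*Kcnq5*), chr10:79716634-79736108 (*Hcn2*), chr3:89146074-89160196 (*Hcn3*) and chr9:58823412-58863175 (*Hcn4*).

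The plates are the replicates. Which animals went into which plate is not given, so plates may share animals, and p-values measure only the spread between plates. Kept neurons averaged 11174 UMIs at e14.5, 41594 at p0, 30623 at p12 and 44511 in the adult, and the kept neurons of 1 plate held between 680212 and 2387288 UMIs. All 13 plates used the same 96 well barcodes, and no kept neurons had identical counts. The summed level of 5 proprioceptor markers (*Pvalb*, *Runx3*, *Ntrk3*, *Etv1*, *Whrn*) was 1668 to 1708 CPM at e14.5, 4986 to 5060 at p0, 4076 to 4371 at p12 and 2761 to 3315 in the adult, whereas that of 5 nociceptor and C fibre markers was at most 17.8 CPM. Of the 9 glial markers, the sum was 85.5 to 105 CPM at e14.5, 564 to 672 at p0, 225 to 615 at p12 and 327 to 878 in the adult. In 111 wells with under 2000 detected genes, which together held 100175 UMIs, no UMI of the 5 channel genes was found.

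At the level of stages, the transcripts did not move together. *Kcnq3* and *Hcn2* were low at e14.5 and rose by p0, *Hcn3* fell between p0 and p12, and *Hcn4* and *Kcnq5* showed no difference between neighbouring stages that passed the test. Levels are in CPM, a gene's UMIs per 1000000 UMIs of a neuron, averaged over the neurons of a plate. For the tests, UMIs were summed per plate, and stages were set against each other by the quasi-likelihood F-test of edgeR over 11939 genes, with a Benjamini-Hochberg adjusted p under 0.05 as the threshold. All members but *Kcnq5* had enough UMIs to enter this fit.

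**Figure D1:**
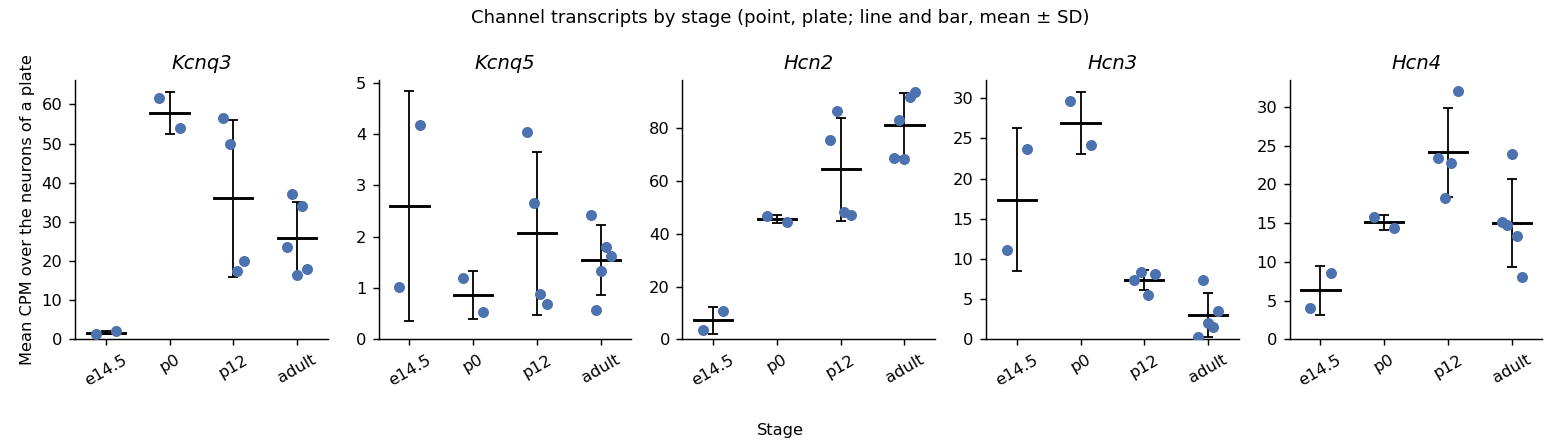
Mean CPM of each gene (vertical axes, linear, from 0) over the neurons of each plate, by stage. Points are plates, lines are means and bars are the SD over 2 (e14.5, p0), 4 (p12) or 5 (adult) plates. *Kcnq3* stayed at 1.44 and 2.11 CPM on the e14.5 plates and was 54.0 or above on both p0 plates, and the p12 plates fall into an upper and a lower pair.

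*Kcnq3* encodes the subunit that joins others of its family in the channels of the M-current. Its level was 1.44 and 2.11 CPM on the 2 e14.5 plates, and 61.6 and 54.0 CPM on the 2 p0 plates. The p12 plates held 56.6, 49.9, 17.4 and 20.0 CPM, and the adult plates 23.7, 37.1, 16.6, 34.0 and 17.9 CPM. Thus the e14.5 plates were below every later plate, while the range of p12 overlapped with those of p0 and adult. Only 3 UMIs, in 3 of 169 neurons, were found at e14.5, against 139 UMIs in 43 of 55 neurons at p0. The ratio of the summed levels was 38.2, with a 95% interval of 12.8 to 188 that covers counting error only. In the fit over plates the log2 fold change from e14.5 to p0 was 5.12 ± 0.78 (SE), with an edgeR adjusted p of 0.00038. 2 of the 4 members tested passed here, *Kcnq3* and *Hcn2*, where 27.8% of all genes tested did. With e14.5 clusters 1 and 2 only, the log2 fold changes were 4.66 for *Kcnq3* (edgeR adjusted p = 0.00099) and 2.67 for *Hcn2* (edgeR adjusted p = 0.00058).

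The e14.5 neurons were also the shallowest, so each neuron was thinned at random to 7000 UMIs, which left out 20 neurons and kept 151 of 169 at e14.5. At this depth 1.95 ± 0.77% (SD, n = 2 plates) of e14.5 neurons had a *Kcnq3* UMI, against 29.1 ± 0.10% (n = 2) at p0, 27.5 ± 19.1% (n = 4) at p12 and 18.3 ± 5.58% (n = 5) in the adult. Without thinning the shares were 1.73, 76.9, 56.6 and 55.5%. The thinned sums gave a log2 fold change from e14.5 to p0 of 3.80 for *Kcnq3* (edgeR adjusted p = 0.0028) and of 2.36 for *Hcn2* (edgeR adjusted p = 0.013). Of the glial markers 6 were tested in this step, and 3 rose with the channels while 1 fell, among them *Apoe* (log2 fold change 5.81, edgeR adjusted p = 0.00024) and *Fabp7* (5.56, edgeR adjusted p = 0.00015). Of the 5 proprioceptor markers 2 rose and 1 fell in this step. The part of either group of markers in the rise of *Kcnq3* and *Hcn2* was not tested.

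After p0 the order of the *Kcnq3* levels was p0 (57.8 ± 5.42 CPM), p12 (36.0 ± 20.1) and adult (25.8 ± 9.30), and the plate ranges of neighbours in this order overlapped. The log2 fold change from p0 to p12 was -0.57 ± 0.41 (SE; edgeR adjusted p = 0.37) and from p12 to adult -0.28 ± 0.33 (edgeR adjusted p = 0.62), with 95% intervals of -1.45 to 0.31 and -0.98 to 0.43. The p12 value rests on 2 unlike pairs of plates. With p12 replicates 3 and 4 only, the fall from p0 passed the test (log2 fold change -1.38, edgeR adjusted p = 0.014), and with p12 replicates 1 and 2 only it was 0.04 (edgeR adjusted p = 0.96), a split chosen after the data were seen. Replicates 1 and 2 held 12 and 13 kept neurons with 65165 and 52324 UMIs each on average, and replicates 3 and 4 held 67 and 62 neurons with 28433 and 21753 UMIs. The 2 pairs also held different p12 clusters, so plate, depth and cluster cannot be told apart.

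*Kcnq5*, a second subunit of M-current channels, was the scarcest member, with 33 UMIs in 26 of the 586 neurons. The e14.5 plates held 1.02 and 4.18 CPM, the p0 plates 1.20 and 0.531, and the p12 plates 4.04, 2.66, 0.881 and 0.693. The adult plates held 2.42, 0.579, 1.32, 1.81 and 1.62 CPM. The ranges of the 4 stages overlapped, no plate held more than 6 UMIs, and *Kcnq5* had too few UMIs to enter the fit. With no filter on low counts, the edgeR adjusted p was 1.00, 0.99 and 0.81 for the 3 steps between neighbouring stages, so no stage difference was detectable at this depth.

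*Hcn2* encodes a subunit of Ih channels that responds strongly to cAMP. It was at 3.55 and 10.9 CPM on the e14.5 plates and at 46.5 and 44.6 CPM on the p0 plates. The p12 plates held 75.3, 86.3, 48.4 and 47.2 CPM, and the adult plates 68.7, 83.1, 68.3, 91.7 and 93.6 CPM. The e14.5 plates lay below every later plate and both p0 plates lay below every p12 and adult plate, but the p12 and adult ranges overlapped. From e14.5 to p0 *Hcn2* rose by a log2 fold change of 2.77 ± 0.40 (SE; edgeR adjusted p = 0.00029), a 6.81-fold difference with a 95% interval of 3.75 to 12.4. The later steps were 0.55 ± 0.27 from p0 to p12 (edgeR adjusted p = 0.18) and 0.34 ± 0.20 from p12 to adult (edgeR adjusted p = 0.28), neither of which passed.

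The share of neurons with an *Hcn2* UMI, at 7000 UMIs per neuron, was 5.16 ± 3.31% at e14.5, 28.0 ± 7.60% at p0, 35.8 ± 11.0% at p12 and 38.5 ± 10.1% in the adult. From p0 on, the plate ranges of these shares overlapped. Without thinning they were 6.26, 75.7, 80.9 and 85.8%.

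*Hcn3*, a subunit whose channels respond little to cAMP, had another time course. It was at 11.1 and 23.6 CPM at e14.5, and 29.6 and 24.2 CPM at p0. The p12 plates held 7.42, 8.35, 5.56 and 8.13 CPM and the adult plates 0.352, 7.41, 2.09, 1.5 and 3.58 CPM. Each e14.5 and p0 plate was above each p12 and adult plate, while e14.5 lay just below p0 and the adult range reached into that of p12. From p0 to p12 *Hcn3* fell by 1.97 ± 0.44 (SE) on the log2 scale (edgeR adjusted p = 0.0059), a 3.91-fold lower level at p12. *Hcn3* was the only 1 of the 4 members tested that passed in this step, where 18.1% of all genes tested did. At 7000 UMIs per neuron the share with an *Hcn3* UMI was 7.19 ± 2.20% at e14.5, 6.92 ± 3.90% at p0, 3.12 ± 3.33% at p12 and 2.36 ± 3.09% in the adult, and the plate ranges of p0 (4.17 to 9.68%) and p12 (0 to 7.69%) overlapped. Without thinning the shares were 14.0, 61.4, 19.9 and 9.80%. Of 6 glial markers tested in this step, *Cnp* (log2 fold change -1.87, edgeR adjusted p = 0.0027) and *Fabp7* (-1.39, edgeR adjusted p = 0.037) fell too, and of the 2 cutaneous mechanoreceptor markers *Ret* rose (3.46, edgeR adjusted p = 0.0045). Of the 5 proprioceptor markers 1 rose and 1 fell. The part of all these markers in the fall of *Hcn3* was not tested.

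This fall kept its direction throughout, but its call rested on p0 replicate 1, without which the log2 fold change was -1.82 (edgeR adjusted p = 0.085), leaving 1 p0 plate that is assumed to vary like the others. With log2 of the mean CPM + 1 and limma, the adjusted p was 0.055. The difference was nearly the same in both pairs of p12 plates, with log2 fold changes of -1.96 in replicates 1 and 2 (edgeR adjusted p = 0.034) and -1.97 in replicates 3 and 4 (edgeR adjusted p = 0.014). From p12 to adult the log2 fold change was -1.33 ± 0.45 (edgeR adjusted p = 0.063), which passed only without adult replicate 2 (-1.80, edgeR adjusted p = 0.022) or with no filter on low counts (edgeR adjusted p = 0.039). From e14.5 to p0 it was 0.60 ± 0.48 (edgeR adjusted p = 0.37). None of the 4 members tested passed between p12 and adult, where 14.1% of all genes tested did, and at an unadjusted p under 0.05 only *Hcn3* did, as did 3692 of all genes.

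*Hcn4*, the subunit known for the pacemaker of the heart, was at 4.09 and 8.55 CPM at e14.5 and at 15.8 and 14.4 CPM at p0. The p12 plates held 23.5, 18.2, 22.8 and 32.0 CPM, and the adult plates 15.1, 14.8, 23.9, 13.3 and 8.08 CPM. The p12 plates were above all p0 plates and the e14.5 plates below them, but the adult range overlapped with e14.5, p0 and p12. No step passed the test, with log2 fold changes of 1.23 ± 0.57 from e14.5 to p0 (edgeR adjusted p = 0.12), 0.74 ± 0.41 from p0 to p12 (edgeR adjusted p = 0.24) and -0.46 ± 0.30 from p12 to adult (edgeR adjusted p = 0.31). The 95% intervals were 0.02 to 2.45, -0.14 to 1.62 and -1.09 to 0.17.

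**Figure D2:**
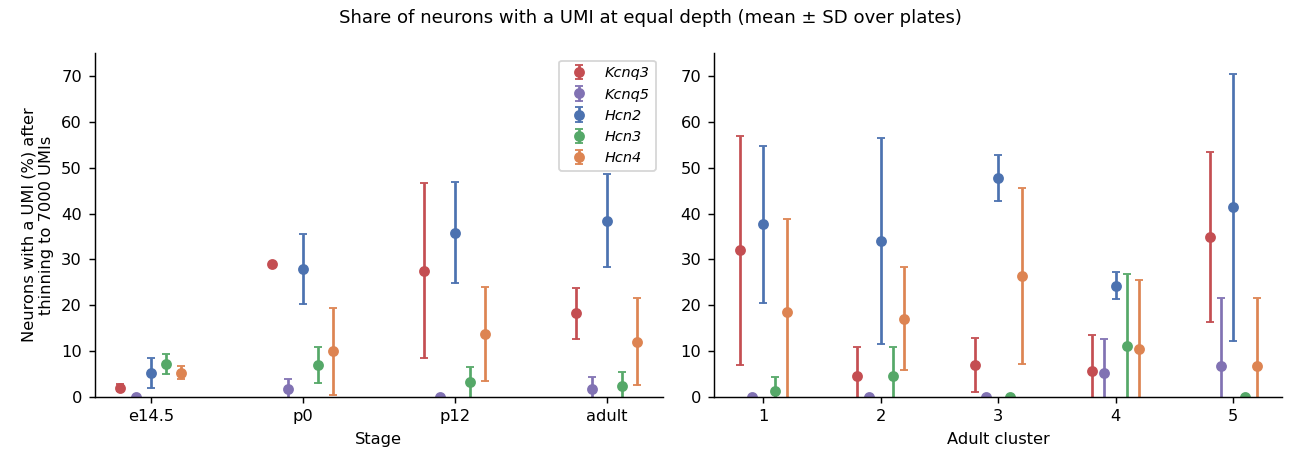
Share of neurons with at least 1 UMI of each gene after each neuron was thinned to 7000 UMIs, by stage (left) and by adult cluster (right). Points are means and bars the SD over plates, cut at 0. *Kcnq3* was found in 1.95% of neurons at e14.5 and 29.1% at p0, and among adult neurons in 32.0% for cluster 1 and 35.0% for cluster 5, against 4.55 to 6.88% in clusters 2 to 4, with overlapping plates.

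The 5 numbered adult clusters of the authors' annotation held 166 neurons, and 42 adult neurons had no numbered cluster. The clusters were found in these same neurons, so a test between them shows how far the plates repeat a difference and is not independent evidence for it. Clusters 1 and 5 were present on all 5 adult plates, clusters 2 and 4 on replicates 1 and 2 only, and cluster 3 mainly on replicates 3 to 5, so plate sets and clusters are confounded for clusters 2 to 4. UMIs were summed per cluster and plate where there were at least 2 neurons, which gave 18 sums and 7370 genes tested. *Kcnq3*, *Hcn2* and *Hcn4* had enough UMIs to enter this fit, *Kcnq5* and *Hcn3* had not.

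**Figure D3:**
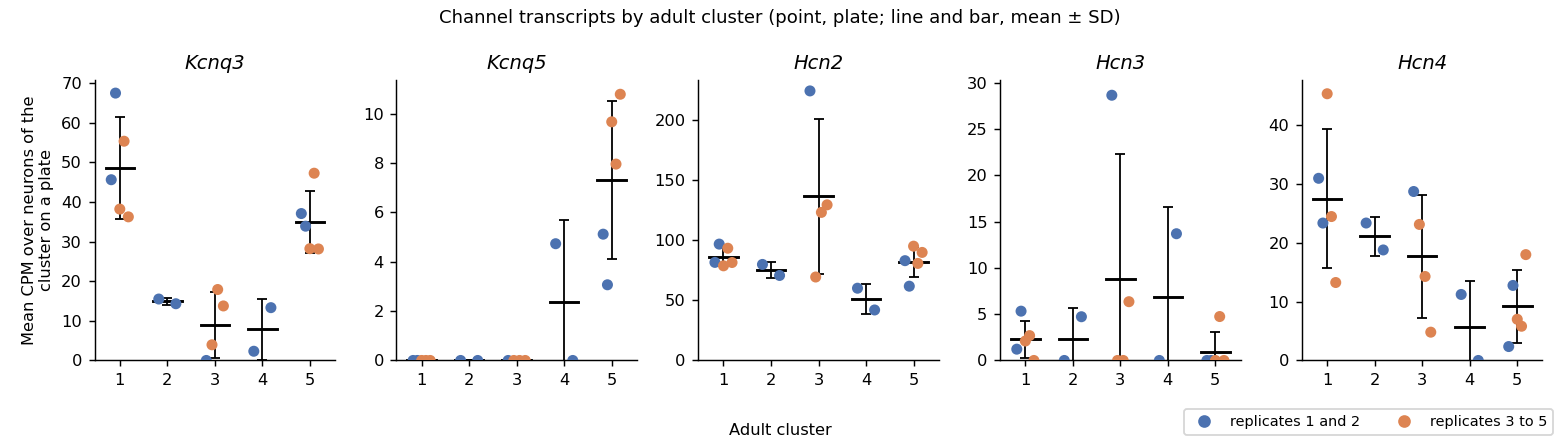
Mean CPM of each gene (vertical axes, linear, from 0) over the neurons of each adult cluster on each plate, for plates with at least 2 neurons of the cluster. Blue points are replicates 1 and 2, orange points replicates 3 to 5, lines are means and bars the SD over plates, cut at 0. *Kcnq3* was 28.2 CPM or more on every plate in clusters 1 and 5 and at most 17.9 in clusters 2 to 4, and *Kcnq5* was at 0 in clusters 1 to 3.

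*Kcnq3* was higher in clusters 1 and 5 than in the other 3. In cluster 1 it was at 45.6, 67.5, 38.2, 55.3 and 36.3 CPM on replicates 1 to 5, and in cluster 5 at 37.1, 33.9, 28.2, 47.3 and 28.2 CPM. In cluster 2 it was at 15.5 and 14.3 CPM, in cluster 4 at 2.33 and 13.3 CPM (both on replicates 1 and 2), and in cluster 3 at 0, 3.96, 17.9 and 13.8 CPM on replicates 2 to 5. Every value of clusters 1 and 5 was therefore above every value of clusters 2 to 4, while clusters 1 and 5 overlapped with each other.

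The difference of clusters 1 and 5 from clusters 2 to 4 was 2.07 ± 0.32 (SE) on the log2 scale, a 4.20-fold higher level with a 95% interval of 2.64 to 6.69 (edgeR adjusted p = 0.00036). *Kcnq3* alone of the 3 members tested passed, where 5.63% of all genes tested did. Taken within the sets of plates, with 8528 genes tested, it was 2.38 ± 0.45 against clusters 2 and 4 on replicates 1 and 2 (edgeR adjusted p = 0.0019) and 1.59 ± 0.38 against cluster 3 on replicates 3 to 5 (edgeR adjusted p = 0.021). These were again the only members to pass, 1 of 3 in each, beside 4.37% and 2.45% of all genes tested.

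The call within each set rested on single plates. It was lost on replicates 1 and 2 without replicate 1 (log2 fold change 2.04, edgeR adjusted p = 0.10) or without replicate 2 (2.55, edgeR adjusted p = 0.10), each of which leaves 1 plate that is assumed to vary like the others. On replicates 3 to 5 it was lost without replicate 3 (1.29, edgeR adjusted p = 0.28), without replicate 4 (1.70, edgeR adjusted p = 0.19) or with DESeq2 (1.56, adjusted p = 0.22).

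Depth, a few glial transcripts, both listed markers of cutaneous mechanoreceptors and 1 of the 5 proprioceptor markers moved with this contrast. The median neuron of clusters 1 and 5 held 59922 and 57694 UMIs, against 31306, 35599 and 20138 in clusters 2, 3 and 4. At 7000 UMIs per neuron *Kcnq3* was found in 32.0 ± 25.1% (SD) of the neurons for cluster 1 and in 35.0 ± 18.5% for cluster 5 (n = 5 plates each), against 4.55 ± 6.43% in cluster 2 (n = 2), 6.88 ± 5.90% in cluster 3 (n = 4) and 5.56 ± 7.86% in cluster 4 (n = 2). The plates overlapped, as the share ran from 0% on replicate 4 to 66.7% in cluster 1 and from 14.3 to 57.1% in cluster 5, against 0 to 14.3% in clusters 2 to 4. Of the 9 glial markers, 5 were tested, and *Mbp* (log2 fold change -2.64, edgeR adjusted p = 0.017) and *Cnp* (-1.47, edgeR adjusted p = 0.036), which encode myelin proteins, were lower in clusters 1 and 5. The summed level of all 9 overlapped, at 110 to 694 CPM in clusters 1 and 5 and 251 to 1095 CPM in clusters 2 to 4. *Maf* (2.12, edgeR adjusted p = 0.00093) and *Ret* (1.36, edgeR adjusted p = 0.00032), which mark low threshold mechanoreceptors of the skin, were higher in clusters 1 and 5, with a summed level of 82.5 to 509 CPM there and 31.9 to 190 CPM in clusters 2 to 4. Without thinning, *Maf* was found in 100 and 86.4% of the neurons of clusters 1 and 5, and in 70.5, 78.8 and 21.6% in clusters 2 to 4. *Ret* was found in 81.8 and 85.1%, against 47.7, 32.8 and 29.5%. Of the 5 proprioceptor markers tested, 1 was higher in clusters 1 and 5. The part of the glial, cutaneous and proprioceptor markers in the *Kcnq3* result was not tested.

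Cluster 1 and cluster 5 did not differ in *Kcnq3* by the test, with a log2 fold change of 0.47 ± 0.29 and a 95% interval of -0.13 to 1.06 (edgeR adjusted p = 0.53). Within both clusters, replicates 1 and 2 differed from replicates 3 to 5 by 0.26 ± 0.27 (edgeR adjusted p = 0.58). None of the 3 members passed in that comparison of plates, where 16.6% of all genes tested did. No member passed in the difference between the plate sets in cluster 1 against cluster 5, where 0.0117% of all genes tested did. At an unadjusted p under 0.05 no member passed there either, beside 309 of the 8528 genes.

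*Kcnq5* was found in cluster 5 on every plate and in no neuron of clusters 1 to 3. In cluster 5 it was at 5.12, 3.07, 9.67, 7.96 and 10.8 CPM on replicates 1 to 5, from 2, 2, 4, 4 and 2 UMIs in 10 of 31 neurons. In cluster 4 it was at 4.73 and 0 CPM, from 3 UMIs in 3 of 28 neurons. In clusters 1 to 3 it had 0 UMIs in 107 neurons, which allows a share of neurons with a UMI of up to 2.80%. The lowest plate of cluster 5 was thus above all plates of clusters 1 to 3, and the cluster 4 plates fell on either side of it.

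The *Kcnq5* level in cluster 5 was 8.21-fold the floor that 3 UMIs over the whole cluster would give in cluster 1. Over the floors of clusters 3 and 2 it was 4.24-fold and 1.22-fold. These ratios leave out the counting error of the 14 UMIs in cluster 5, so they are not lower limits. Cluster 2, with 465259 UMIs, was shallower than cluster 4, and the ratio does not set it apart from cluster 5. Against cluster 4 the ratio was 1.57, with a 95% interval of 0.439 to 8.53, so the 2 could not be told apart at this depth. With no filter on low counts, cluster 1 and cluster 5 differed in *Kcnq5* (edgeR adjusted p = 0.00047). The pair of clusters with the highest *Kcnq3* therefore had different *Kcnq5* counts, with 0 of 3134445 UMIs in cluster 1 and 14 of 1780975 in cluster 5. After thinning to 7000 UMIs per neuron, cluster 5 held a *Kcnq5* UMI in 1 neuron, on replicate 5, and cluster 1 in none, so the thinned shares do not separate them.

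*Hcn4* was higher in cluster 1 than in cluster 5. It was at 30.9, 23.3, 45.3, 24.4 and 13.2 CPM in cluster 1 on replicates 1 to 5, and at 2.36, 12.7, 6.99, 5.81 and 18 CPM in cluster 5. On replicates 1 to 4 cluster 1 was the higher of the pair, and on replicate 5, with 3 neurons in each, cluster 5 was, so the ranges overlapped. The log2 fold change was 1.84 ± 0.45 (SE), a 3.58-fold higher level in cluster 1 with a 95% interval of 1.88 to 6.83 (edgeR adjusted p = 0.016). It was the only 1 of 3 members to pass, where 4.76% of all genes tested did. The call was lost without replicate 1 (1.57, edgeR adjusted p = 0.10), replicate 3 (1.52, edgeR adjusted p = 0.17) or replicate 4 (1.84, edgeR adjusted p = 0.088), and kept with plate as a block (1.78, edgeR adjusted p = 0.0045). Other listed markers were higher in cluster 1 as well, namely *Maf* (log2 fold change 1.51, edgeR adjusted p = 0.013), 1 of the 2 cutaneous mechanoreceptor markers, and *Ntrk3* (0.69, edgeR adjusted p = 0.0034) and *Whrn* (1.11, edgeR adjusted p = 0.0046), 2 of the 5 proprioceptor markers. The summed level of *Maf* and *Ret* was 221 to 509 CPM in cluster 1 and 82.5 to 247 CPM in cluster 5. None of the 5 glial markers tested passed here, and the part of these markers in the *Hcn4* result was not tested.

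In the other clusters *Hcn4* was at 23.3 and 18.8 CPM in cluster 2, at 28.7, 23.1, 14.3 and 4.80 CPM in cluster 3 on replicates 2 to 5, and at 11.2 and 0 CPM in cluster 4. The order of the means was cluster 1 (27.4 CPM), cluster 2 (21.0), cluster 3 (17.7), cluster 5 (9.17) and cluster 4 (5.60), and the plate ranges of each neighbouring pair overlapped. Clusters 1 and 5 together did not differ from clusters 2 to 4 by the test (log2 fold change 0.23 ± 0.42, edgeR adjusted p = 0.84). This value rested on single plates, as it was 1.98 without replicate 1 and -0.25 without replicate 2, and neither passed. Any difference across the 5 clusters passed for *Kcnq3* (edgeR adjusted p = 0.00092) and *Hcn4* (edgeR adjusted p = 0.037), 2 of 3 members, where 9.67% of all genes tested did. For *Hcn4* this was lost without any 1 of replicates 1 to 4, with edgeR adjusted p between 0.12 and 0.21.

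*Hcn2* was found in all 5 clusters, and no test between them passed. It was at 81.6, 96.8, 78.7, 93.3 and 81.5 CPM in cluster 1 and at 83.0, 61.8, 95.1, 80.7 and 89.9 CPM in cluster 5. In cluster 3 it was at 224 CPM on replicate 2, where there were only 2 neurons, and at 69.4, 123 and 129 CPM on replicates 3 to 5. Cluster 2 held 79.9 and 70.7 CPM and cluster 4 held 60.1 and 42.0 CPM, so that both plates of cluster 4 lay below every plate of the other clusters. Cluster 1 against cluster 5 gave a log2 fold change of 0.09 ± 0.19 and clusters 1 and 5 against clusters 2 to 4 gave -0.01 ± 0.16, with 95% intervals of -0.31 to 0.49 and -0.34 to 0.33. In the contrast where *Kcnq3* differed 4.20-fold, the interval for *Hcn2* was thus 0.789-fold to 1.26-fold.

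*Hcn3* had 22 UMIs in 19 of the 208 adult neurons and could not be ranked between clusters. Its means were 2.27, 2.36, 8.76, 6.85 and 0.95 CPM in clusters 1 to 5, with ranges that all included 0. The mean of cluster 3 rested on replicate 2, at 28.7 CPM from 1 UMI in 1 of 2 neurons. Replicates 3 to 5 held 0, 0 and 6.36 CPM there. In cluster 5 it was found on replicate 4 only.

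**Figure D4:**
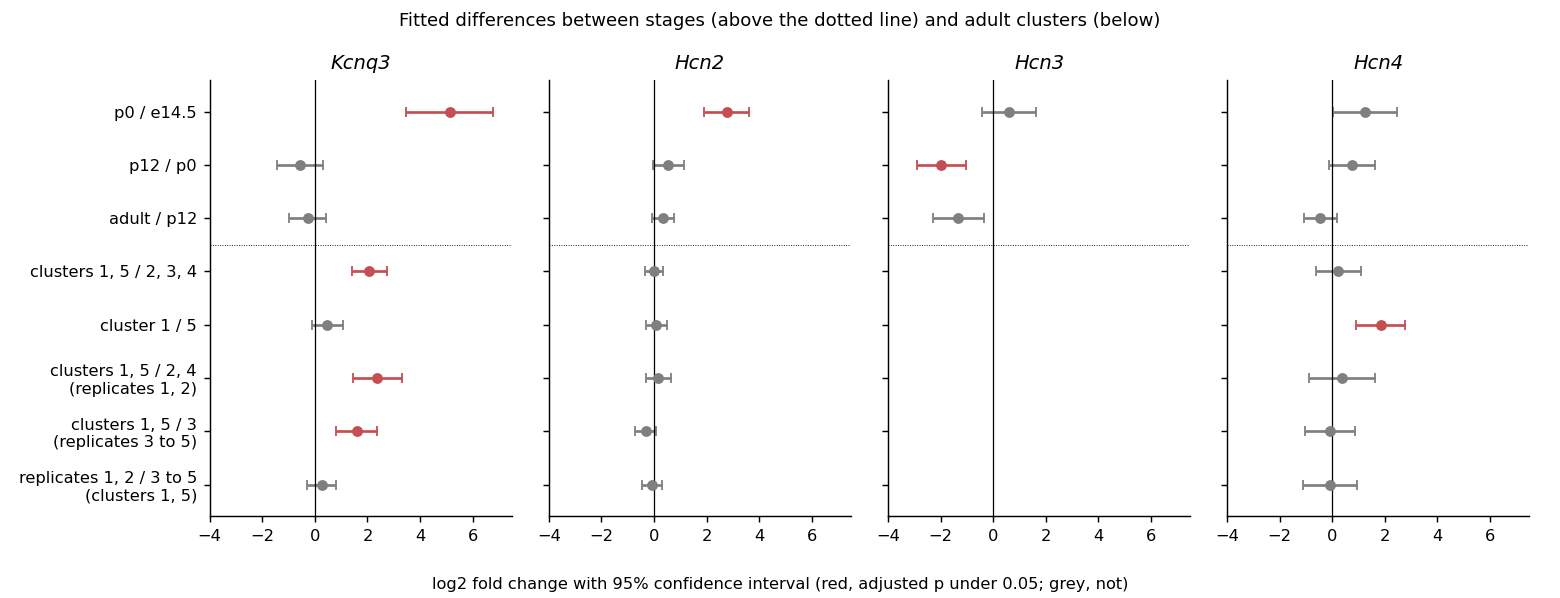
Fitted log2 fold changes (horizontal axis) with 95% confidence intervals for the 4 genes that passed the filter on low counts between stages, of which *Hcn3* was not tested between clusters. Red, edgeR adjusted p under 0.05; grey, not. *Kcnq3* passed from e14.5 to p0 (5.12) and between clusters (2.07), *Hcn2* only from e14.5 to p0 (2.77), *Hcn3* only from p0 to p12 and *Hcn4* only between clusters 1 and 5 (1.84).

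Counted over the members, a neuron of cluster 1 or 5 usually held UMIs of several of the 5 genes. At least 3 of them were found in 35 of 51 neurons in cluster 1 and 17 of 31 in cluster 5, against 4 of 15, 7 of 41 and 0 of 28 in clusters 2, 3 and 4. Of cluster 4 neurons, 7 of 28 had none. These counts follow depth as well as level and no test was made of them. The 42 adult neurons without a numbered cluster held *Kcnq3* at 26.9 ± 20.3, *Hcn2* at 66.1 ± 27.4 and *Hcn4* at 6.39 ± 4.56 CPM (SD, n = 5 plates), *Kcnq5* at 0.698 ± 0.957 and *Hcn3* at 4.25 ± 4.57 CPM.

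The clusters of the earlier stages have their own numbers, which do not correspond to those of the adult. At p0, where each of 3 clusters was on both plates, *Kcnq3* was at 68.5 and 63.6 CPM in cluster 1, 54.8 and 52.3 in cluster 2, and 43.2 and 16.6 in cluster 3. *Hcn2* had another order there, with 76.7 and 68.6 CPM in cluster 2 above 38.6 and 34.8 in cluster 1 and 47.7 and 41.2 in cluster 3, and the ranges of cluster 2 and the other 2 did not overlap. *Hcn4* was lowest in cluster 3, at 8.41 and 8.29 CPM, against 13.2 or more on each plate of clusters 1 and 2. With 12 neurons in cluster 2 and 8 in cluster 3, these are descriptions and were not tested.

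At p12, clusters 2 and 3 were on replicates 1 and 2 and clusters 1, 4 and 5 on replicates 3 and 4, 2 plates each. *Kcnq3* was at 98.8 and 79.7 CPM in p12 cluster 2 and at 26.5 and 41.0 CPM in cluster 3 of the same plates. On the other pair of plates it was at 25.1 and 13.7 in cluster 1, 9.63 and 32.0 in cluster 4 and 40.2 and 36.3 in cluster 5. Cluster 2 therefore stood above all other p12 clusters, within its own plates too, and the upper pair of p12 plates is not high in every cluster. *Hcn2* in the same clusters was 84.6 and 106 CPM in cluster 2, 68.7 and 80.5 in cluster 3, 26.6 and 38.1 in cluster 1, 59.8 and 62.7 in cluster 4, and 54.3 and 87.4 in cluster 5, so cluster 1 was lowest. *Hcn4* ranged from 12.1 to 38.6 CPM with no cluster apart from the rest. p12 *Kcnq5* was found in clusters 3 and 4 only, with 4 and 3 UMIs, and had 0 UMIs in clusters 1, 2 and 5, of 63, 8 and 8 neurons.

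**Figure D5:**
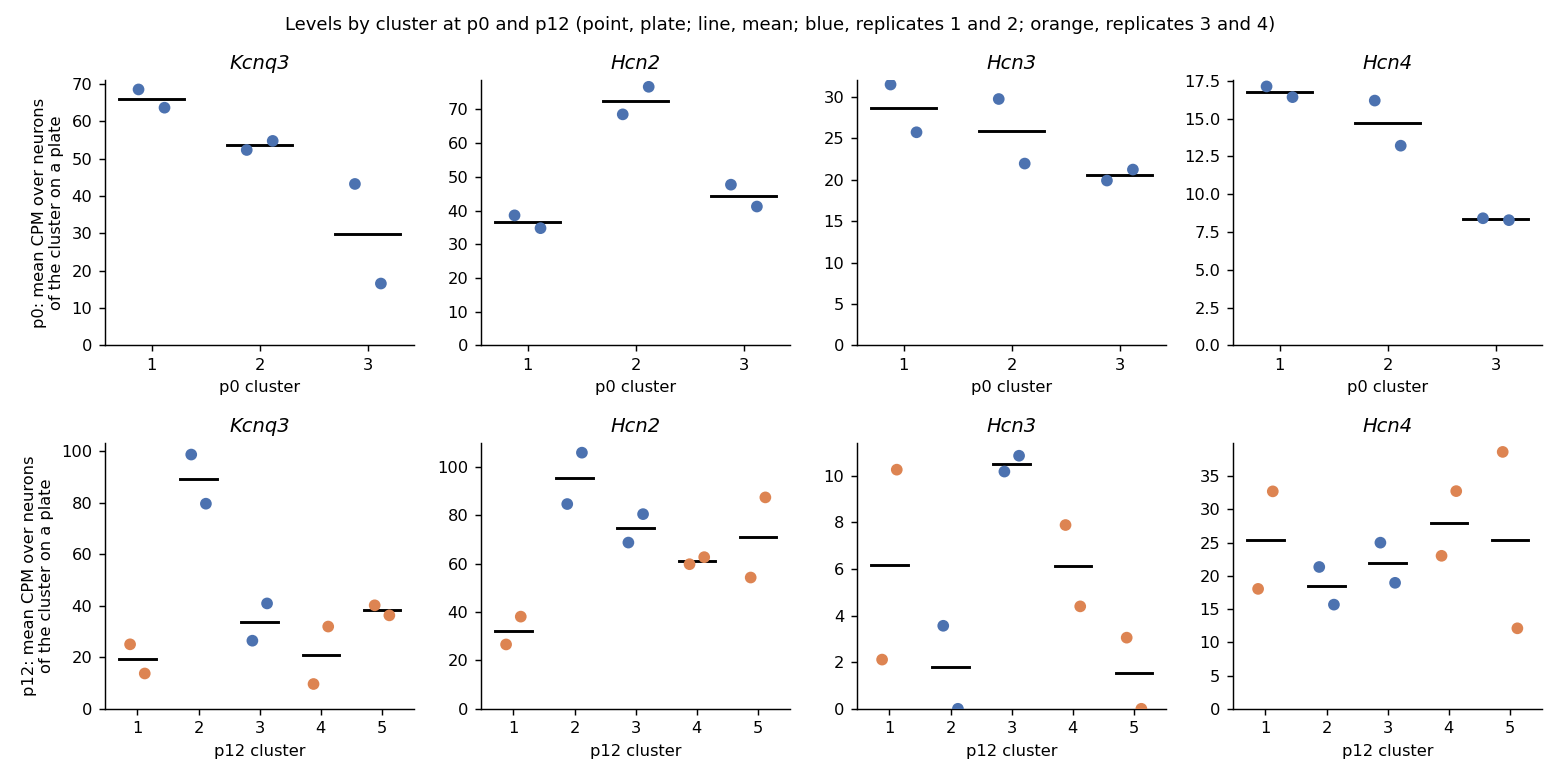
Mean CPM of 4 of the genes (vertical axes, linear, from 0) over the neurons of each cluster on each plate at p0 (upper row) and p12 (lower row). Points are plates and lines the mean of 2 plates, with blue for replicates 1 and 2 and orange for replicates 3 and 4. *Kcnq3* was at 79.7 and 98.8 CPM in p12 cluster 2 and at 41.0 or less in the other p12 clusters, and *Hcn2* was highest in p0 cluster 2.

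At e14.5, the 3 *Kcnq3* UMIs came from 3 of 88 neurons of cluster 2. Clusters 1, 3 and 4, with 41, 34 and 6 neurons, had 0, and so few UMIs cannot show a difference between these clusters. *Hcn3* was at 16.1 and 19.7 CPM in e14.5 cluster 2 on replicates 1 and 2, and at 9.87 and 23.0 CPM in cluster 3. In cluster 1 it was at 0 and 35.9 CPM, from 15 and 26 neurons, so that its level there rests on 1 plate.

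The genes whose pattern over the 18 adult cluster sums was most like that of a member were found by Pearson's r of log2 CPM, as a description over sums that share plates and depth. For *Kcnq3* they were *Kcna1* (r = 0.92), *Pcdh9* (0.89) and *Chst15* (0.88). For *Hcn4* they were *D10Jhu81e* (0.82), *Mt1* (0.78) and *Ganab* (0.78), and for *Hcn2* *Galnt16* (0.79), *Gstk1* (0.78) and *Rabepk* (0.76).

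Other channel subunits of the family were scarce. *Kcnq1* had 1 UMI in the kept neurons. Of the accessory subunits, *Kcne1* had none, *Kcne2* had 2 UMIs, *Kcne1l* 5, *Kcne3* 13 and *Kcne4* 18. None of these had enough UMIs to be tested.

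Partners of the channels, the Gq and PIP2 pathway that shuts the M-current, and the adenylyl cyclases that make cAMP gave 26 tested genes of 39 listed (the scarce subunits included) between stages. From e14.5 to p0, 5 rose and 2 fell, from p0 to p12, 5 rose and 3 fell, and from p12 to adult, 4 rose and 1 fell. The median log2 fold change over the 26 was 0.32, -0.05 and 0.07, and over all genes tested 0.01, 0.02 and 0.04. With 7, 8 and 5 called, or 26.9, 30.8 and 19.2%, the shares called among these genes stand beside 27.8, 18.1 and 14.1% among all genes tested.

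Among them, the adenylyl cyclases *Adcy9* (log2 fold change 2.09, edgeR adjusted p = 0.0080) and *Adcy2* (1.70, adjusted p = 0.015) and the phospholipase *Plcb4* (1.14, adjusted p = 0.028) rose from e14.5 to p0, while the inositol transporter *Slc5a3* (-2.08, adjusted p = 0.00032) and *Ank3* (-1.19, adjusted p = 0.015), which encodes the scaffold that holds Kcnq channels at the axon initial segment, fell. From p0 to p12, *Adcy8* rose (1.89, edgeR adjusted p = 0.0040), and the kinase anchor *Akap5* (-3.15, adjusted p = 0.00051), *Adcy2* (-1.86, adjusted p = 0.0039) and *Slc5a3* (-1.28, adjusted p = 0.025) fell. *Mrvi1* was called there as well. It encodes a partner of Hcn channels and had 0 UMIs on the e14.5 and p0 plates and 35 at p12. The p12 level was 5.66-fold the floor that 3 UMIs over the stage would give at p0. That ratio leaves out the counting error of the 35 UMIs. From p12 to adult, *Akap5* rose (2.23, edgeR adjusted p = 0.0045), as did *Plcb4* (1.44, adjusted p = 0.00046), *Pip5k1b* (0.87, adjusted p = 0.047) and *Pi4ka* (0.67, adjusted p = 0.022), and *Pip5k1c* fell (-0.49, adjusted p = 0.049), the last 3 being lipid kinases on the path to PIP2.

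Between adult clusters 21 of the 39 were tested, and 1 of them passed in clusters 1 and 5 against clusters 2 to 4 (4.76%, beside 5.63% of all genes tested). This was *Adcy8*, a cyclase activated by calcium, with a log2 fold change of -1.84 ± 0.29 (edgeR adjusted p = 0.00036), the opposite direction to *Kcnq3*. It was at 7.05 ± 6.38 and 16.7 ± 5.68 CPM in clusters 1 and 5, and at 58.2 ± 3.29, 34.3 ± 5.19 and 32.3 ± 16.5 CPM in clusters 2, 3 and 4. It was lower within both sets of plates, by -1.70 on replicates 1 and 2 (edgeR adjusted p = 0.0057) and -2.04 on replicates 3 to 5 (edgeR adjusted p = 0.0011). In the difference across all clusters 2 of the 21 passed (9.52%, beside 9.67% of all genes tested), *Adcy8* (edgeR adjusted p = 0.00056) and *Sgk1* (edgeR adjusted p = 0.045), a kinase that acts on channel trafficking.

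Between clusters 1 and 5, 3 of the 21 passed (14.3%, beside 4.76% of all genes tested), 1 higher and 2 lower in cluster 1. The protein kinase C gene *Prkca*, which acts downstream of Gq, was higher in cluster 1 (log2 fold change 1.75, edgeR adjusted p = 0.012), and *Nedd4l*, a ubiquitin ligase for Kcnq channels (-1.14, edgeR adjusted p = 0.038), was lower. The Hcn partners *Pex5l* and *Kctd3* were tested between clusters and passed in no contrast between clusters. Between the plate sets 3 of 23 passed (13%, beside 16.6% of all genes tested), which were *Gnaq* (0.96, edgeR adjusted p = 0.00081), *Ank3* (0.73, adjusted p = 0.00093) and *Calm3* (0.25, adjusted p = 0.049), each higher on replicates 1 and 2 within clusters 1 and 5.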

How the data were processed

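The authors aligned Plate-seq reads to GRCm38 (mm10) with STAR (version not given in the sources used here), collapsed them by UMI, and deposited whole-number UMI counts per gene and well, without normalization, beside an annotation of stage, plate and cluster. Doublets had been gated out by scatter at sorting, and no doublet caller was run. The stage of each plate came from its label. CPM used the total UMIs of each neuron. UMIs were summed per plate, or per adult cluster and plate (at least 2 neurons), and compared by the quasi-likelihood F-test of edgeR 4.0.16 (R 4.3.3), after filterByExpr and TMM normalization, with Benjamini-Hochberg adjustment over all genes tested and a threshold of 0.05, with stage, cluster, or cluster and plate set as the only term. Intervals of log2 fold changes came from the same fit. DESeq2 1.42.0 and its size factors, limma 3.58.1, filters, thinning to 7000 UMIs, plate as a block and each plate left out were alternatives. The fits were also run on simulated counts with a fixed dispersion and no shared plate effect. Such a run cannot test the fits for sums that share plates. The genes, lists and tests were chosen with earlier results of these data known. Named genes are the 5 members, the 3 most alike per member, listed channel subunits, and up to 5 called list genes per contrast. Intervals of UMI ratios and limits from a count of 0 cover counting error only. The authors' combined table was not used, as it repeats the plate counts. Some listed genes are not reported here.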

Additional observations from a re-analysis of the deposited data

Results flagged for a closer look

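One plate stood apart from the rest of its group. *Hcn3* in adult cluster 5 was at 4.75 CPM on replicate 4, from 3 UMIs in 2 of 7 neurons, and at 0 on the other 4 plates. Of 28 groups of 4 or 5 plates examined, this was the 1 with such a gap. The gap test is set to single out about 1 in 20 groups by chance where values spread normally, and with UMIs on a single plate the gap is always the whole range.

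Wells with at least 2000 genes that the authors did not keep lie outside all comparisons, and they held channel transcripts too. *Kcnq3* was at 13.6 ± 1.45 CPM (SD, n = 5 plates) in 242 such adult wells, 20.2 ± 11.9 (n = 4) in 216 at p12 and 73.4 ± 3.54 (n = 2) in 92 at p0. *Hcn2* was at 71.1, 61.4 and 44.6 CPM there, in the same order of stages, *Hcn3* at 4.80, 8.71 and 36.2 CPM, and *Hcn4* at 20.5, 21.1 and 16.6 CPM. *Kcnq5* was at 1.20 CPM in the adult and 1.23 CPM at p12. In these wells the glial transcript *Apoe* was at 7122 CPM in the adult, 5521 at p12 and 2113 at p0, against 364, 248 and 291 CPM in the kept neurons. The adult *Kcnq3* range in these wells (12.1 to 15.1 CPM) lay below that of the kept neurons (16.6 to 37.1 CPM). At p0 the order was the other way, with *Kcnq3* at 70.8 to 75.9 CPM in these wells against 54.0 to 61.6 in the kept neurons, and *Hcn3* at 35.8 to 36.6 against 24.2 to 29.6. The part of the glial transcripts in these differences was not tested.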

How the results depend on the processing

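The rise of *Kcnq3* and *Hcn2* from e14.5 to p0 was called under each of 20 alternatives, and *Kcnq3* in clusters 1 and 5 against clusters 2 to 4 under each of 11. Counts of members called changed as follows, with the share of all genes tested that was called beside each. From p0 to p12 the count fell from 1 to 0 with mean CPM and limma (14.2% of all genes) or thinned neurons (10.2%, *Hcn3* then failing the low-count filter) and rose to 2 with p12 replicates 3 and 4 only (22.9%), and plates left out gave 0 to 1 (6.80 to 19.3%). From p12 to adult it was 1 with no filter (8.87%), and 0 to 1 with plates left out (6.88 to 16.5%). Cluster 1 against cluster 5 gave 2 with no filter (2.37%, *Kcnq5* then being tested and called) and 0 to 1 with plates left out (2.68 to 3.95%). Against cluster 3 in replicates 3 to 5 it was 0 with DESeq2 (1.21%) and 0 with thinned neurons (0.945%), and 0 to 1 with plates left out (0.757 to 2.41%). Against clusters 2 and 4 in replicates 1 and 2 it was 0 with thinned neurons (2.29%) and 0 to 1 with plates left out (0.754 to 5.33%). Any difference across clusters gave 3 with no filter (6.59%, *Kcnq5* then being called), and 1 to 2 with plates left out (3.74 to 7.29%). Thinned sums left *Hcn2* alone tested in the plate-set fit and no member in the cluster fit, which has no thinned value, and DESeq2 gave an adjusted p but no F across clusters.

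No called value changed sign, but uncalled log2 fold changes did. *Hcn2* in clusters 1 and 5 against 2 to 4 was 0.058 with no filter, and 0.020 and 0.014 with sums of at least 1 and 4 neurons. *Hcn4* was 0.043 from p12 to adult with p12 replicates 1 and 2 only, 0.014 against cluster 3 with DESeq2, and, with sums of at least 4 neurons, 0.043 between the plate sets and -0.48 in their difference between clusters 1 and 5. *Kcnq3* was 0.54 from p12 to adult with p12 replicates 3 and 4 only, and 0.037 from p0 to p12 with replicates 1 and 2 only. With each plate left out in turn, *Hcn2* ranged from -0.082 to 0.16 in clusters 1 and 5 against 2 to 4 and from -0.049 to 0.19 in cluster 1 against 5. *Hcn4* then ranged from -0.47 to 0.15 against cluster 3, from -0.91 to 3.05 against clusters 2 and 4, from -0.25 to 1.98 against clusters 2 to 4, from -0.81 to 0.15 between the plate sets and from -0.69 to 1.71 in their difference, and *Kcnq3* from -0.54 to 0.052 between p12 and adult, from -0.0019 to 0.50 between the plate sets and from -0.29 to 0.72 in their difference. The p12 splits were chosen after seeing the data. Plate as a block changed no call, and the cause of the changes was not tested. Summed UMIs over summed depth kept 47 of 50 mean levels within 1 SD, while 66 of 100 shares of neurons with a UMI moved by more, under thinning or a minimum of 2 UMIs.

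The stages share no plate and the labels number no replicates across them, so stages could not be paired. The adult clusters were paired by plate only in the alternative with plate as a block. The main cluster fit and the plate-set fit were not paired. Depth limits *Kcnq5* and adult *Hcn3*, with 33 and 22 UMIs.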
